A study of Mus musculus with 12 samples.

Results

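The 35 genes described here carry out mitosis and the spindle checkpoint. They form a list of gene names that was matched to the symbols in the deposited tables. All 35 were found among the 54146 genes of the deposited files, of which 54079 have a symbol. Mitosis begins when the kinase CDK1, bound to a B-type or A-type cyclin, is switched on by CDC25 phosphatases. The spindle assembly checkpoint then holds the anaphase-promoting complex (APC/C), a ubiquitin ligase, inactive until every kinetochore is attached to microtubules. Transcripts of these genes rise together in G2 and mitosis in most dividing cells, and mouse embryonic stem cells (mESCs) have a short cell cycle with a brief G1 phase.

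The RNA came from C57BL/6 mESCs in which both *Prdm10* alleles are floxed (*Prdm10*F/F) and which carry *Rosa26*-CreERT2, a Cre recombinase expressed broadly from the *Rosa26* locus and active in the presence of 4-hydroxytamoxifen (OHT). PRDM10 is a zinc finger transcription factor. Cells received 50 nM OHT or the same volume of ethanol (EtOH) for 24 h and were collected at Day 2 or Day 4 in serum and LIF, which gave 4 groups of 3 libraries. All 4 groups share the floxed alleles and the recombinase, and cells that received OHT without floxed alleles were not analysed here, so an effect of OHT or of Cre cannot be told apart from that of the deletion. The methods of the study state in general that experiments were repeated independently, but no label says that the libraries of a group are separate cultures. The p-values therefore measure only the spread between these libraries, which may be technical. The normalised count of *Prdm10* over the whole gene was 767 to 911 in the 6 libraries labelled EtOH. It was higher, at 1965 to 2225, in the 6 labelled OHT. A count over the whole gene cannot single out the floxed exon, so it does not check the deletion, and directions are given as labelled. The study reports that it verified recombination in genomic DNA, in transcripts by the floxed exon, and in protein. Of the genes on the study's list of genes associated with PRDM10 binding sites, 45.3% of 426 tested were called lower and 10.8% higher with OHT at Day 2, and 51.2% of 424 lower and 13.7% higher at Day 4 (shares of all genes are given with each day).

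Libraries held 35017670 to 41409990 expected counts. The 35 genes took 0.76% to 0.847% of them, and the coefficient of variation (SD over mean) of a gene within a group had a median of 2.26% and a highest value of 9.61%. Pluripotency markers summed to 2505 to 2982 TPM (the share of all transcripts scaled to a fixed total, a level per transcript length) in every library, with all 10 listed genes above 1 TPM. Fibroblast markers, which would mark feeder cells, summed to 1.16 to 3.56 TPM, with 1 of 8 above 1 TPM. Germ layer markers summed to 0.87 to 1.78 TPM with 0 of 6 above 1 TPM, and primitive endoderm markers to 5.89 to 8.89 TPM with 1 of 6. Trophoblast markers summed to 28.0 to 36.2 TPM, with 2 of 6 above 1 TPM and nearly all of the sum from *Tfap2c*. At Day 4 the fibroblast sum was 2.59 to 3.43 TPM with EtOH and 1.16 to 1.61 TPM with OHT, the trophoblast sum was 28.0 to 28.9 TPM and 34.6 to 35.7 TPM, and the pluripotency sum was 2505 to 2801 TPM and 2877 to 2982 TPM, none of which overlapped between the labels. Over the libraries, *Dppa5a* had a mean of 1337 TPM within the pluripotency sum, and *Thy1* had 1.89 TPM within the fibroblast sum. A shift of a sum can therefore come largely from 1 gene. The part of these sums in the Day 4 results was not tested.

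Transcript levels per length spanned a wide range. *Top2a*, which encodes the DNA topoisomerase that untangles chromosomes, was the highest at 445 TPM (SD 17.1, n = 12 libraries). *Cdk1* at 216 TPM (SD 12.1, n = 12) and *Ccnb1*, encoding cyclin B1, at 213 TPM (SD 20.6, n = 12) came next, and these levels overlapped. *Cdc25c* at 11.9 TPM (SD 0.807, n = 12) and *Cdc25b* at 6.23 TPM (SD 0.626, n = 12), which encode activating phosphatases of CDK1, were the lowest, and neither range overlapped that of its neighbours. The other 30 members ran from 124 to 24.9 TPM, and most neighbours in this order did not differ beyond their ranges over the 12 libraries. The plot of TPM by gene shows this order.

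**Figure D1:**
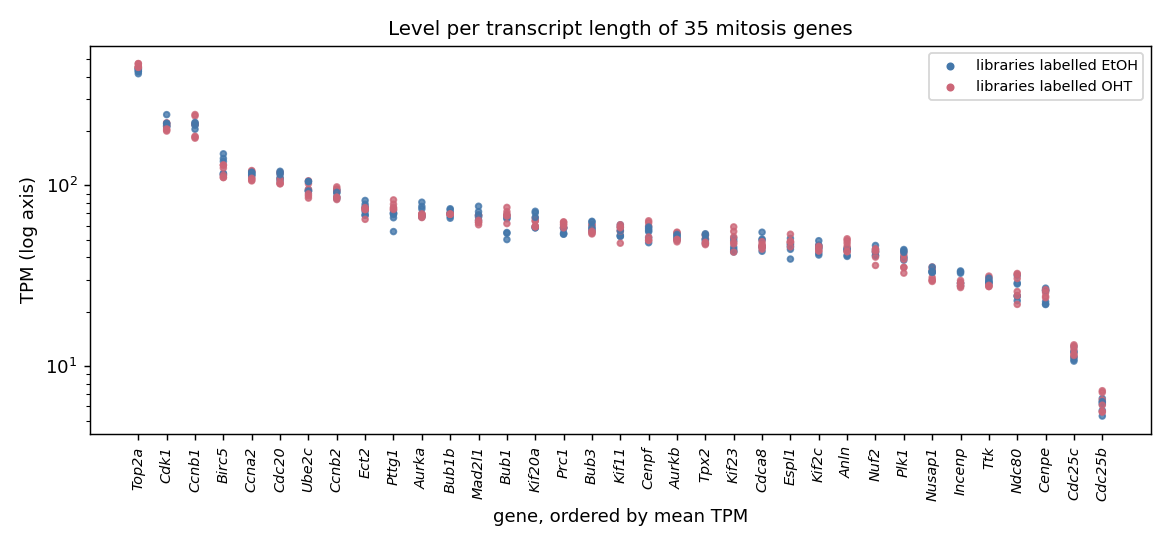
TPM of each of the 35 genes on a log axis, ordered by mean, with 1 point per library (12 per gene, coloured by label). *Top2a* stands alone at 415 to 472 TPM, 30 genes have means between 124 and 24.9 TPM, and *Cdc25c* and *Cdc25b* lie below the rest.

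Many promoters of these genes hold short elements that were looked for because they are known from G2 and mitosis genes. Their shares describe the list and are no independent test of it. The cell cycle genes homology region (CHR, written TTTGAA or TTTAAA) and the CCAAT box are bound in many G2 and mitosis genes by the DREAM or MYB-MuvB complexes and by NF-Y. RefSeq promoter windows on GRCm38.p6, from 250 bases before to 50 bases after the gene start, were found for 29 members (32 windows, since 3 members have 2 windows each). Either CHR form, on either strand, was in 26 of the 32 windows (81.2%), against 27.6% of all 32851 windows in the table. CCAAT, on either strand, was in 24 (75%) against 37.4%, and both kinds were in 22 (68.8%) against 10.7%. Among 175 windows of related mitosis and cell cycle genes, 37.1% held a CHR form and 52.6% held CCAAT. Of the 38 CHR matches in the members, 30 lay within 100 bases of the gene start, as did 40 of the 53 CCAAT matches. A site shared by the 2 overlapping windows of *Bub3*, *Ect2* or *Prc1* is counted in each window. This count was not made for all windows. A match is a description of the letters and does not show that a factor binds there. The span TGGTCGCGCCC holds the letters changed in the study's mutated binding probe for PRDM10. It was in 0 member windows and in 0.0122% of all windows (4 of 32851), on either strand. The member windows without it include that of *Cenpe*, which is on the study's list of genes associated with PRDM10 binding sites. So exact a span is too rare for 32 windows to tell whether PRDM10 sites are present or absent. Other forms of the binding sequence were not searched.

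**Figure D2:**
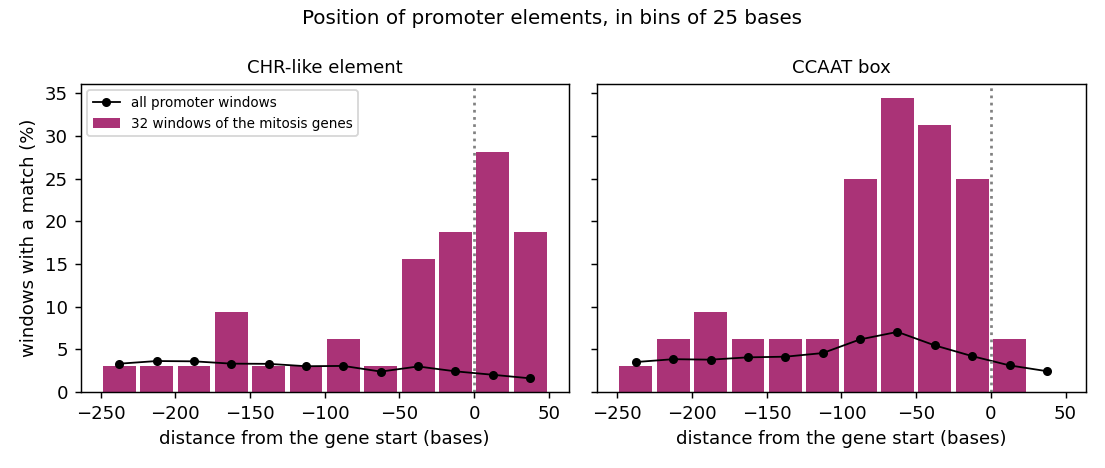
Share of promoter windows with a match in bins of 25 bases, by distance from the gene start, for CHR-like elements (left) and CCAAT boxes (right), with bars for the 32 windows of the mitosis genes and a line for all windows. CHR matches of these genes gather from 50 bases before the start to the end of the window, where up to 28.1% of windows hold one in a bin, and CCAAT matches gather in the 100 bases before it.

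Below are the 200 bases before the RefSeq start for a kinase gene and the CDK1 gene that fell at Day 4 (*Plk1*, chr7:122159235-122159434, plus strand; *Cdk1*, chr10:69352913-69353112, minus strand), an APC/C activator gene that fell (*Cdc20*, chr4:118437344-118437543, minus strand), the gene that rose most (*Bub1*, chr2:127831860-127832059, minus strand), and the only member on the study's list of genes associated with PRDM10 binding sites (*Cenpe*, chr3:135212363-135212562, plus strand). Each is written 5′ to 3′ on the strand of the gene, on GRCm38.p6, and capitals mark CHR forms and CCAAT boxes on either strand (TTCAAA and ATTGG are the reverse readings).
Plk1: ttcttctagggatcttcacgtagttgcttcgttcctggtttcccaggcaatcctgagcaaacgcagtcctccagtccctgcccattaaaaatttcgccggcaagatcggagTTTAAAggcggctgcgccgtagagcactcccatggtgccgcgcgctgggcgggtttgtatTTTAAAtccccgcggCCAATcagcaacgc
Cdk1: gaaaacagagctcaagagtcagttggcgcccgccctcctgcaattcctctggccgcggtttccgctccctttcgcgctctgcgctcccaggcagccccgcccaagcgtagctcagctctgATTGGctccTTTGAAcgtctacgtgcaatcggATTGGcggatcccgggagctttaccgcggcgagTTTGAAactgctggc
Cdc20: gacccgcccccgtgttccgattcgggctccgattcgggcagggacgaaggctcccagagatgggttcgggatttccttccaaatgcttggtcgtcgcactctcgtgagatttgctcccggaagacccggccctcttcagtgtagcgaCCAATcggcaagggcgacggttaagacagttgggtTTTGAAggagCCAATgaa
Bub1: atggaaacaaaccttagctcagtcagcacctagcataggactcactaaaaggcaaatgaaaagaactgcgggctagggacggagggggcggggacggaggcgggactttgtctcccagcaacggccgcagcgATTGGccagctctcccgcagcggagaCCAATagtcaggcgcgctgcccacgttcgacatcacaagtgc
Cenpe: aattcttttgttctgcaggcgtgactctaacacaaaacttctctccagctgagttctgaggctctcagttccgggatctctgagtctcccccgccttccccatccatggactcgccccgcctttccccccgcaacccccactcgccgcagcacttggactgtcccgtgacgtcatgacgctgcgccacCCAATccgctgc
*Plk1* and *Cdk1* each held 2 CHR forms in this stretch and *Cdc20* held 1. *Bub1* held 0 in its whole window and 2 CCAAT boxes. *Cenpe* held 0 CHR forms before its start and 1 after it. The CHR share did not single out the members that fell at Day 4. It was 12 of 14 windows for members called lower, 11 of 13 for members not called and 3 of 5 for members called higher, with no test made.

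At Day 2, few of these genes differed between the labels. A gene was called where its DESeq2 adjusted p over all genes was below 0.05 and its mean normalised count above 100, which all 35 passed. Of the 35, 1 was called higher with OHT, against 9.17% of the 11644 genes tested, and 2 were called lower, against 10.6%. The median log2 fold change (OHT over EtOH) was -0.033 over the members and -0.028 over all genes tested, and no member differed by over 2-fold on either day. Normalised counts of the labels did not overlap for 2 members on the higher side, against 18.7% of all genes, and for 6 on the lower side, against 26.9%. For 29 of the 32 members not called, the 95% interval of the log2 fold change lay within 0.2 of 0 on both sides. The exceptions were *Cdc25c*, *Pttg1* and *Ect2*, the last encoding an activator of RhoA in cytokinesis, with -0.12 (SE 0.05, adjusted p = 0.0888).

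*Birc5*, which encodes survivin of the chromosomal passenger complex, had 5032, 4879 and 4822 normalised counts in the Day 2 EtOH libraries and 4329, 4472 and 4510 in the OHT libraries. Every OHT library was below every EtOH library, and the log2 fold change was -0.15 (SE 0.04, adjusted p = 0.00899). *Nuf2*, encoding a subunit of the NDC80 complex that holds microtubules at the kinetochore, had 3919, 3846 and 3908 counts with EtOH and 3719, 3546 and 3341 with OHT. These groups did not overlap either, and the log2 fold change was -0.14 (SE 0.05, adjusted p = 0.0439). *Cenpf*, encoding a large kinetochore and nuclear matrix protein, had 22405, 22894 and 25410 counts with EtOH and 25228, 27235 and 26924 with OHT, with 1 library of each label overlapping. It was called higher, by 0.17 (SE 0.05, adjusted p = 0.00942). After removal of each library's trend on gene length, the log2 fold change of *Cenpf* was -0.047 (adjusted p = 0.519), and *Birc5* was at -0.07 (adjusted p = 0.312) and *Nuf2* at -0.11 (adjusted p = 0.15). *Cenpf* was not called without EtOH replicate 1 (adjusted p = 0.163), EtOH replicate 2 (adjusted p = 0.135) or OHT replicate 2 (adjusted p = 0.101), *Birc5* was not called without EtOH replicate 1 (adjusted p = 0.0754) or OHT replicate 1 (adjusted p = 0.0629), and *Nuf2* was not called when any 1 library other than OHT replicate 1 was left out (adjusted p = 0.124 to 0.179). Nor was *Nuf2* called with edgeR, TMM factors, total counts, effective lengths as offsets or either replicate block. *Birc5* also lost its call with total counts and with either replicate block.

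At Day 4, 17 of the 35 genes (48.6%) were called lower with OHT, against 21.7% of the 11555 genes tested, and 4 (11.4%) were called higher, against 23.5%. Among the 7274 genes with a mean at or above that of the lowest member, 26.7% were called lower and 25.7% higher. The median log2 fold change was -0.061 over the members and 0.006 over all genes, and 26 of 35 values were below 0. Counts of the labels did not overlap on the lower side for 18 members, against 29.5% of all genes, and on the higher side for 7, against 33.5%. The changes were small, from -0.31 for *Plk1* to 0.40 for *Bub1*. In bulk RNA, fewer cells in a phase and less RNA per cell cannot be told apart. By flow cytometry, the study found no significant change in cell cycle distribution after loss of PRDM10. The day of that measurement is not given in the text used here, and its bearing on these RNA levels was not tested. The 35 genes took 0.785% of counts with EtOH (SD 0.00589, n = 3) and 0.762% with OHT (SD 0.00178, n = 3) at Day 4. At Day 2 they took 0.808% (SD 0.00493, n = 3) and 0.832% (SD 0.0141, n = 3), the opposite order. Such a share weighs the genes with the most counts, such as *Top2a*, most. By gene, 24 of 35 log2 fold changes at Day 2 were below 0, with a median of -0.033.

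**Figure D3:**
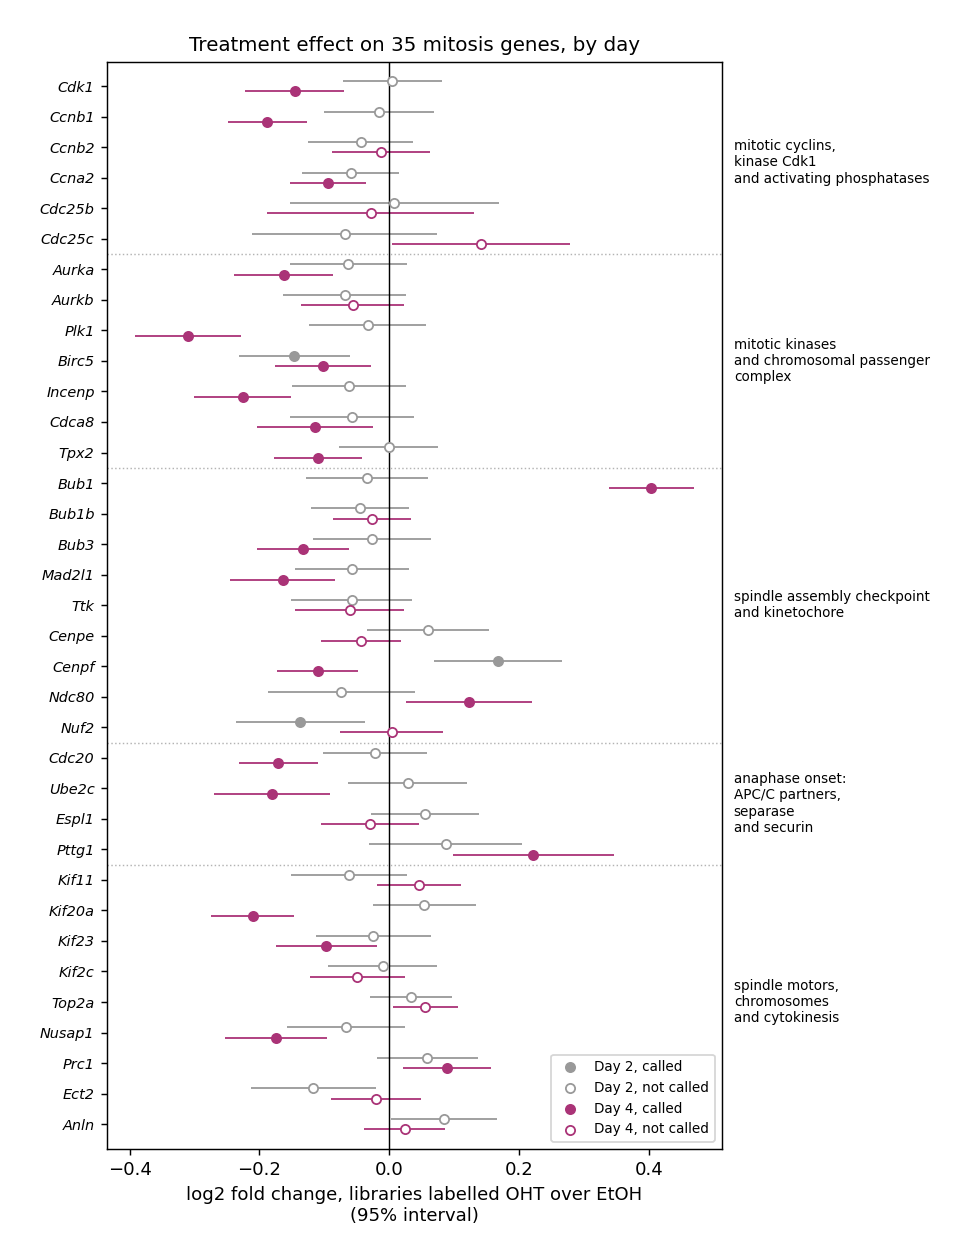
Log2 fold change of the libraries labelled OHT over EtOH for each of the 35 genes, grouped by role, with Day 2 in grey, Day 4 in purple, 95% intervals as lines and filled points where called. Most Day 4 points lie to the left of 0, with *Plk1* at -0.31 as the lowest and *Bub1* at 0.40 as the highest, whereas 3 Day 2 points are filled.

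The counts by role that follow cover 4 to 9 genes each and stand beside the same 21.7% lower and 23.5% higher of all genes, with no test between roles. Of the 6 genes for mitotic cyclins, CDK1 and its activating phosphatases, 3 were called lower at Day 4 and 3 were not called. *Cdk1* had 9021, 8395 and 8280 counts in the Day 4 EtOH libraries and 7843, 7912 and 7517 in the OHT libraries. All 3 OHT libraries were lower, with a log2 fold change of -0.15 (SE 0.04, adjusted p = 0.000985). At Day 2 its counts were 8940, 8860 and 8734 with EtOH and 8670, 8891 and 9056 with OHT, which overlapped. *Ccnb1* (chr13:100778650-100786570, minus strand) had 20232, 19352 and 19064 counts with EtOH and 17218, 17439 and 16913 with OHT at Day 4. The drop was clear of the spread in each library, at -0.19 (SE 0.03, adjusted p = 1.76e-08). Its Day 2 counts were 22660, 21598 and 20860 with EtOH and 21516, 22287 and 20552 with OHT, again overlapping. *Ccna2*, encoding cyclin A2, was also called lower, with a log2 fold change of -0.095 (SE 0.03, adjusted p = 0.00695). *Ccnb2*, encoding cyclin B2, stood at -0.012 (95% interval -0.088 to 0.063). *Cdc25b* stood at -0.028 (95% interval -0.19 to 0.13) and *Cdc25c* at 0.14 (95% interval 0.005 to 0.28, adjusted p = 0.107).

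Of the 7 genes for mitotic kinases and the chromosomal passenger complex, which corrects wrong attachments at the centromere, 6 were called lower at Day 4, and the median of the 7 log2 fold changes was -0.11. *Plk1*, encoding Polo-like kinase 1, which drives centrosome maturation and mitotic entry, had 3882, 3814 and 3787 counts with EtOH and 3155, 2990 and 3133 with OHT. It had the most negative value of the 35, at -0.31 (SE 0.04, adjusted p = 1.88e-12), a level 0.807 times that with EtOH. At Day 2 its counts of 3935, 3754 and 3754 with EtOH and 3780, 3674 and 3723 with OHT overlapped. *Incenp*, encoding the scaffold of the passenger complex, had 4431, 4356 and 4417 counts with EtOH and 3755, 3726 and 3828 with OHT at Day 4. All OHT libraries lay well below, at -0.23 (SE 0.04, adjusted p = 3.41e-08). *Incenp* had 4249, 4052 and 4124 counts with EtOH and 3994, 3925 and 3977 with OHT at Day 2, where it was not called although the labels did not overlap. *Aurka*, the kinase gene of the spindle poles, was lower by a log2 fold change of -0.16 (SE 0.04, adjusted p = 0.000195). Its activator gene *Tpx2* (-0.11, adjusted p = 0.00643) and the passenger complex gene *Cdca8*, encoding borealin (-0.11, adjusted p = 0.0376), were called too. *Birc5* had 5676, 5393 and 5350 counts with EtOH and 5187, 5038 and 5093 with OHT, at -0.10 (SE 0.04, adjusted p = 0.0229). *Birc5* was thus called lower on both days, the only member called on both in the same direction, but at Day 4 it was not called without EtOH replicate 1 (adjusted p = 0.112) or OHT replicates 1, 2 or 3 (adjusted p = 0.0558, 0.126 and 0.0882). Nor was it called at Day 4 with either replicate block. *Aurkb*, encoding the kinase of the same complex, had 3703, 3569 and 3651 counts with EtOH and 3575, 3465 and 3484 with OHT at Day 4. It was the only gene of this role not called, at -0.056 (95% interval -0.14 to 0.023, adjusted p = 0.311). Its Day 2 counts were 4156, 4056 and 3795 with EtOH and 3875, 3796 and 3778 with OHT, and these overlapped as well.

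**Figure D4:**
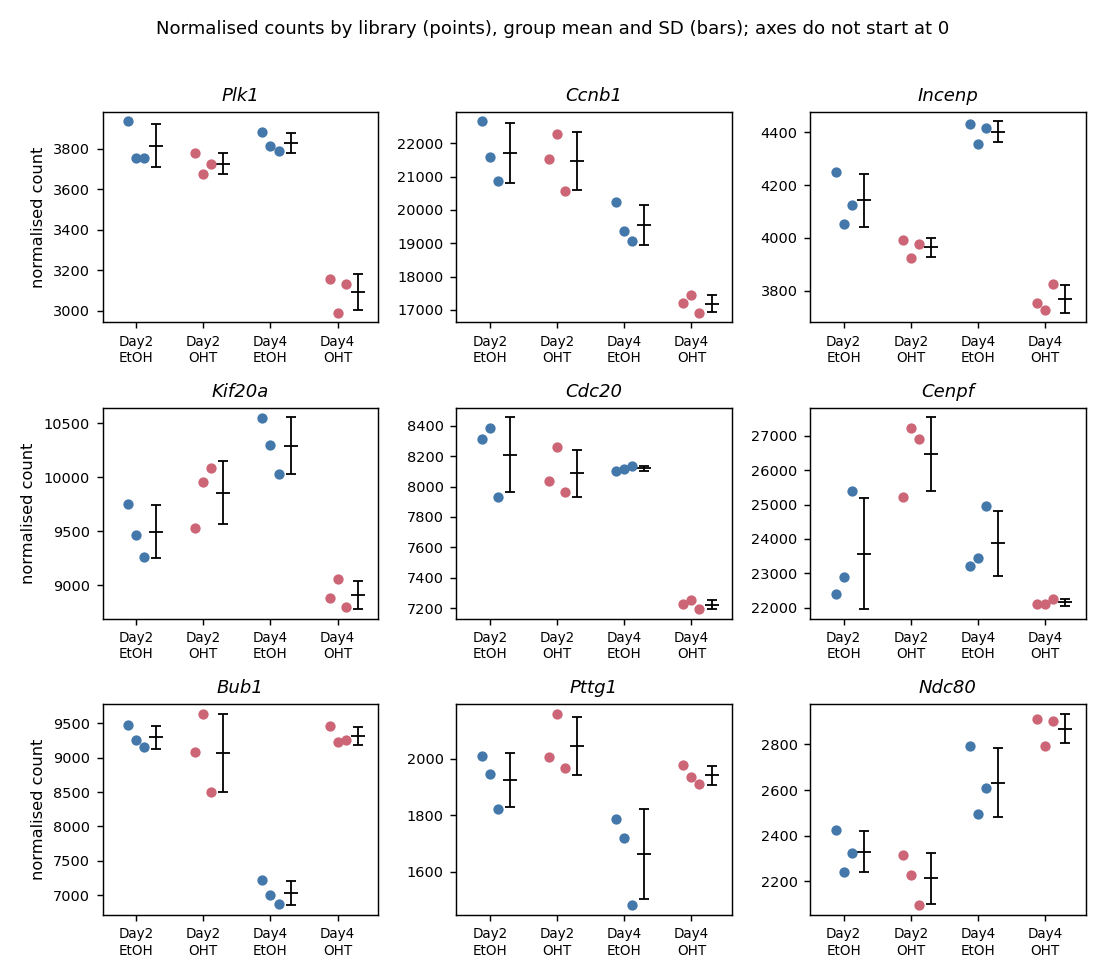
Normalised counts of 9 members in each of the 12 libraries, with EtOH in blue, OHT in red, and black bars for the group mean and SD (n = 3). *Plk1*, *Ccnb1*, *Incenp*, *Kif20a* and *Cdc20* are lowest in the 3 Day 4 OHT libraries, whereas *Bub1* and *Pttg1* are lowest in the 3 Day 4 EtOH libraries.

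Of the 9 genes of the spindle assembly checkpoint and the kinetochore, 3 (33.3%) were called lower at Day 4 and 2 (22.2%) higher, beside 21.7% and 23.5% of all genes. *Bub1* (chr2:127801122-127831865, minus strand) encodes a checkpoint kinase that recruits other checkpoint proteins to the kinetochore. It had 7216, 7007 and 6869 counts in the Day 4 EtOH libraries and 9460, 9231 and 9256 in the Day 4 OHT libraries. The labels were far apart, with a log2 fold change of 0.40 (SE 0.03, adjusted p = 3.3e-32), a level 1.32 times that with EtOH. At Day 2 the counts were 9479, 9259 and 9150 with EtOH and 9086, 9633 and 8494 with OHT. Of the 4 groups, Day 4 EtOH was thus the one that stood apart, and Day 4 OHT lay within the range of the Day 2 libraries. *Bub1b*, encoding BUBR1 of the inhibitory checkpoint complex, had 10752, 10491 and 10487 counts with EtOH and 10374, 10571 and 10252 with OHT at Day 4. These overlapped, at -0.027 (95% interval -0.087 to 0.033, adjusted p = 0.562), as did its Day 2 counts of 11030, 10575 and 10766 with EtOH and 10256, 10446 and 10676 with OHT. *Bub3*, encoding the partner of both, was called lower at -0.13 (SE 0.04, adjusted p = 0.00136).

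*Mad2l1*, encoding MAD2, which binds and inhibits CDC20, had 5738, 5346 and 5288 counts with EtOH and 4972, 4927 and 4734 with OHT at Day 4. All OHT libraries were below the EtOH libraries, at -0.16 (SE 0.04, adjusted p = 0.000409). Its Day 2 counts were 5477, 5158 and 5454 with EtOH and 5218, 5207 and 5022 with OHT, with overlap. *Cenpf* had 23219, 23443 and 24950 counts with EtOH and 22095, 22096 and 22257 with OHT at Day 4. The sign was opposite to that of Day 2, at -0.11 (SE 0.03, adjusted p = 0.00233), and *Cenpf* was the only member called in opposite directions on the 2 days. With the length trend removed its Day 4 value was -0.073 (adjusted p = 0.0519). Nor was *Cenpf* called at Day 4 in 1 fit of all 12 libraries. *Ndc80*, encoding a microtubule-binding subunit of the kinetochore, had 2794, 2493 and 2608 counts with EtOH and 2911, 2794 and 2905 with OHT, with a library of each label at almost the same count. It was called higher, at 0.12 (SE 0.05, adjusted p = 0.0399), but not without EtOH replicate 2 (0.085, adjusted p = 0.279), EtOH replicate 3 (adjusted p = 0.121) or OHT replicate 1, 2 or 3 (adjusted p = 0.171, 0.0596 and 0.138). *Ndc80* also lost its call with effective lengths as offsets and with either replicate block. Its Day 2 counts were 2423, 2242 and 2325 with EtOH and 2317, 2225 and 2095 with OHT. *Nuf2*, whose protein pairs with NDC80, showed no such rise, with 3970, 3782 and 3793 counts with EtOH and 3808, 3914 and 3868 with OHT at Day 4 and a log2 fold change of 0.004 (95% interval -0.075 to 0.082). The checkpoint kinase gene *Ttk* was not called, at -0.061 (95% interval -0.14 to 0.023).

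*Cenpe* (chr3:135212537-135273611, plus strand) encodes the kinesin that moves chromosomes to the spindle equator. It was the 1 member on the study's list of 633 genes associated with PRDM10 binding sites, 627 of which are in the files. Its counts at Day 2 were 6896, 6875 and 7546 with EtOH and 7328, 7613 and 7260 with OHT. The labels overlapped, and the log2 fold change was 0.06 (95% interval -0.035 to 0.15, adjusted p = 0.465). With effective lengths as offsets, which correct for which transcripts of a gene were found, it was 0.12 (adjusted p = 0.0243). At Day 4 its counts were 8263, 8102 and 8209 with EtOH and 8002, 7866 and 8014 with OHT. All OHT libraries were lower, but the difference of -0.043 (95% interval -0.1 to 0.018, adjusted p = 0.31) was not called.

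Of the 4 genes for anaphase onset, 2 were called lower and 1 higher at Day 4. *Cdc20*, encoding the APC/C activator that the checkpoint restrains, had 8105, 8118 and 8135 counts with EtOH and 7228, 7252 and 7196 with OHT. The libraries of each label lay very close together and far from the other label, at -0.17 (SE 0.03, adjusted p = 4.73e-07). Its Day 2 counts were 8314, 8385 and 7931 with EtOH and 8035, 8258 and 7963 with OHT, with overlap. *Ube2c*, encoding the ubiquitin-conjugating enzyme of the APC/C, had 3666, 3647 and 3340 counts with EtOH and 3143, 3093 and 3178 with OHT at Day 4. It was lower in every OHT library, at -0.18 (SE 0.05, adjusted p = 0.000461). At Day 2 its counts were 3640, 3663 and 3527 with EtOH and 3769, 3678 and 3593 with OHT. *Pttg1* encodes securin, the inhibitor of separase. It had 1785, 1718 and 1481 counts with EtOH and 1976, 1935 and 1911 with OHT at Day 4, so that all OHT libraries were higher. The log2 fold change was 0.22 (SE 0.06, adjusted p = 0.00226), and without EtOH replicate 3, the lowest library, it was 0.15 (adjusted p = 0.0522). At Day 2 *Pttg1* had 2010, 1945 and 1822 counts with EtOH and 2005, 2160 and 1967 with OHT. The separase gene *Espl1* was not called, at -0.029 (95% interval -0.1 to 0.047).

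Of the 9 genes for spindle motors, chromosome structure and cytokinesis, 3 were called lower and 1 higher at Day 4. *Kif20a*, encoding a kinesin that brings the passenger complex to the central spindle, had 10549, 10301 and 10028 counts with EtOH and 8880, 9056 and 8799 with OHT. Here the OHT libraries were lower by far more than their spread, at -0.21 (SE 0.03, adjusted p = 1.51e-09). Its Day 2 counts were 9755, 9466 and 9265 with EtOH and 9526, 9955 and 10087 with OHT, with overlap and a value of 0.05 that was not called. *Nusap1*, encoding a microtubule bundling protein (-0.17, SE 0.04, adjusted p = 0.000103), and *Kif23*, encoding a central spindle kinesin (-0.097, SE 0.04, adjusted p = 0.0433), were called lower as well. *Prc1*, encoding the protein that bundles antiparallel microtubules at the central spindle, had 6812, 6548 and 6424 counts with EtOH and 7017, 6995 and 7064 with OHT at Day 4. It was called higher, at 0.09 (SE 0.03, adjusted p = 0.0327), but not without EtOH replicate 2 or 3 (adjusted p = 0.132 and 0.17) or OHT replicate 1, 2 or 3 (adjusted p = 0.119, 0.0956 and 0.106). *Prc1* also lost its call with either replicate block. At Day 2 *Prc1* had 6860, 6889 and 7035 counts with EtOH and 7188, 7263 and 7182 with OHT, at 0.06 and not called although the labels did not overlap. *Kif11*, *Kif2c*, *Top2a*, *Ect2* and *Anln* were not called at Day 4, with log2 fold changes from -0.049 to 0.06.

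Of the 14 members not called at Day 4, 13 had a 95% interval within 0.2 of 0 on both sides, the exception being *Cdc25c*. Between the days, 19 members were called at Day 4 alone, as were 32.7% of the 11345 genes tested on both days. *Nuf2* was the 1 member called at Day 2 alone, beside 7.40% of all genes, and 13 were called on neither day, beside 47.3%. *Birc5* and *Cenpf* were the members called on both days, beside 12.6% of all genes. Leaving out 1 library at a time left 13 to 16 members called lower and 1 to 5 called higher at Day 4. Of all genes, the same fits called 1937 to 2191 lower and 2097 to 2636 higher. The 4 called higher became 1 without EtOH replicate 3, and 2 without EtOH replicate 2 or without any OHT replicate. *Bub1*, *Plk1*, *Ccnb1*, *Incenp*, *Kif20a*, *Cdc20*, *Cdk1*, *Mad2l1* and *Ube2c* were called in the same direction at Day 4 under all alternatives run for single genes. For members without printed counts, such as *Kif23* and *Cdca8*, these alternatives are not reported gene by gene. How firm their lower calls are is thus not shown.

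The change of the treatment effect from Day 2 to Day 4 was tested as an interaction over all 12 libraries. It was called more negative at Day 4 for 8 members, against 13.6% of the 11616 genes tested, and more positive for 2, against 18.7%. The median was -0.054 over the members and 0.035 over all genes. *Bub1* had the largest value, at 0.44 (SE 0.06, adjusted p = 1.97e-12), from -0.034 at Day 2 to 0.40 at Day 4. *Cenpf* followed at -0.28 (SE 0.06, adjusted p = 0.00021) and *Plk1* at -0.27 (SE 0.05, adjusted p = 3.19e-06). *Kif20a* (-0.26, adjusted p = 5.68e-07), *Ube2c* (-0.21, adjusted p = 0.00362), *Ccnb1* (-0.17, adjusted p = 0.0108), *Incenp* (-0.16, adjusted p = 0.00439), *Cdk1* (-0.15, adjusted p = 0.0229) and *Cdc20* (-0.15, adjusted p = 0.00362) were also more negative at Day 4. *Ndc80* was the other gene that was more positive, at 0.20 (SE 0.07, adjusted p = 0.0314), but it was not called in 8 of the 12 fits that left out a library (adjusted p = 0.0534 to 0.134), namely without Day 2 EtOH replicate 1 or 3, Day 2 OHT replicate 2 or 3, Day 4 EtOH replicate 2 or 3, or Day 4 OHT replicate 1 or 3. *Cdk1* was not called in 6 of these 12 fits (adjusted p = 0.0548 to 0.0986), namely without Day 2 EtOH replicate 2 or 3, Day 2 OHT replicate 2 or 3, Day 4 EtOH replicate 1 or Day 4 OHT replicate 3. With effective lengths as offsets, *Cdk1* was not called either (adjusted p = 0.271). *Ndc80* was also not called with total counts, or with the length trend removed with and without the replicate block (adjusted p = 0.0636 to 0.101). *Cenpf* was not called with the length trend removed (adjusted p = 0.772 to 0.788, with and without the replicate block). All 10 were called at Day 4 as well. With total counts as the scaling, 14 members were called more negative and 1 more positive. Of the 11625 genes tested with that scaling, 2098 were called more negative and 1664 more positive, with a median of -0.0098, so all genes moved too.

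**Figure D5:**
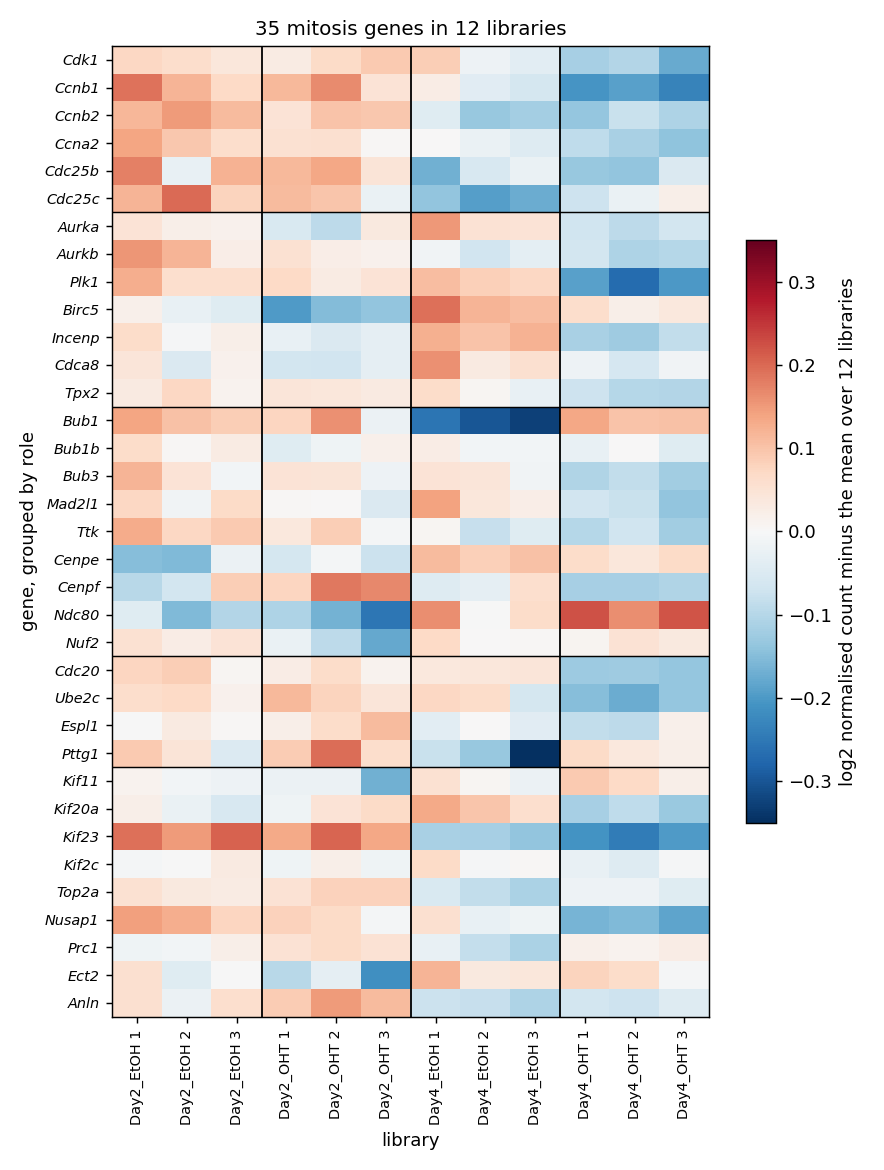
Log2 normalised count of each of the 35 genes (rows, grouped by role) in each of the 12 libraries (columns) minus the gene's mean over the 12, in red above and blue below that mean. *Bub1* is deep blue in the 3 Day 4 EtOH libraries, *Plk1* is blue in the 3 Day 4 OHT libraries alone, and *Kif23* is red at Day 2 and blue at Day 4 with either label.

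Levels changed with time under each label as well. The comparisons below share libraries with those above. With EtOH, 12 members were called lower at Day 4 than at Day 2, against 20.5% of the 11572 genes tested, and 4 were called higher, against 20.6%. With OHT, 19 were called lower, against 23.0% of 11638, and 6 higher, against 30.8%. The member medians were -0.031 with EtOH and -0.11 with OHT, beside -0.002 and 0.036 over all genes. Called lower with both labels were 9 members, and 3 were called higher with both, and the same was not counted over all genes. *Kif23* had the largest drop common to both labels, at -0.31 (SE 0.04, adjusted p = 1.48e-12) with EtOH and -0.37 (SE 0.04, adjusted p = 1.08e-16) with OHT. *Ndc80* was higher at Day 4 with both, at 0.17 (SE 0.06, adjusted p = 0.00772) and 0.38 (SE 0.05, adjusted p = 5.6e-12). Cyclin B2 shared the direction of *Kif23*, with *Ccnb2* at -0.23 (SE 0.04, adjusted p = 2.07e-07) and -0.19 (SE 0.04, adjusted p = 1.4e-05). *Bub1* was lower at Day 4 with EtOH, at -0.41 (SE 0.04, adjusted p = 6.14e-27), and was not called with OHT. Only *Kif20a* was called in opposite directions, at 0.11 (SE 0.04, adjusted p = 0.00839) with EtOH and -0.14 (SE 0.04, adjusted p = 0.000503) with OHT.

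Other genes of mitosis and the cell cycle were read from 6 lists with 174 genes in all, none of them members. At Day 2, 14 of the 171 tested (8.19%) were called higher and 17 (9.94%) lower, close to the 9.17% and 10.6% of all genes. At Day 4, 35 of 172 (20.3%) were called higher and 46 (26.7%) lower, near the 23.5% and 21.7% of all genes, with a median log2 fold change of -0.01 beside 0.006 over all genes. Of 35 kinetochore and centromere genes, 7 (20%) were called higher and 10 (28.6%) lower at Day 4, again near those shares. *Cenpn*, which encodes a protein that reads the centromeric nucleosome and is on the study's list of PRDM10-associated genes, had 2187, 2134 and 2011 counts with EtOH and 1029, 984 and 1009 with OHT. Every OHT library was far below every EtOH library, at -1.07 (SE 0.06, adjusted p = 4.22e-73), after -0.79 (SE 0.06, adjusted p = 7.16e-32) at Day 2. *Zwilch*, encoding a kinetochore subunit that recruits dynein, was the most positive, at 0.36 (SE 0.04, adjusted p = 5.34e-18), with 4560, 4656 and 4508 counts with OHT and 3537, 3660 and 3462 with EtOH.

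Condensin and cohesin genes, which compact chromosomes and hold sister chromatids, had 9 of 21 (42.9%) called higher and 2 (9.52%) lower at Day 4, beside 23.5% and 21.7% of all genes, with a median of 0.058. *Smc4*, a core condensin gene, had 10002, 9531 and 9501 counts with EtOH and 12291, 12564 and 12018 with OHT, at 0.34 (SE 0.03, adjusted p = 3.76e-23). *Ncapg2*, a condensin II gene, went the other way, at -0.25 (SE 0.04, adjusted p = 6.4e-10). Of 21 genes of the checkpoint and the APC/C, 4 (19%) were called higher and 5 (23.8%) lower at Day 4, near the shares of all genes. The ends of that list were the APC/C subunit gene *Cdc16* at 0.15 (SE 0.04, adjusted p = 0.00113) and *Mad2l1bp*, encoding the MAD2-binding protein that helps to silence the checkpoint, at -0.25 (SE 0.11, adjusted p = 0.0468). Of 39 spindle, kinesin and cytokinesis genes, 6 (15.4%) were called higher and 11 (28.2%) lower at Day 4, from *Kif14* at -0.30 (SE 0.04, adjusted p = 3.67e-10) to *Kif18b* at 0.28 (SE 0.04, adjusted p = 1.24e-09). *Kif14*, a cytokinesis kinesin gene, had been called higher at Day 2, at 0.20 (SE 0.05, adjusted p = 0.00292).

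Of 27 regulators of mitotic entry and of mitotic transcription, 5 (18.5%) were called higher and 6 (22.2%) lower at Day 4, near the 23.5% and 21.7% of all genes. *Mybl2* encodes B-MYB, which acts with the MuvB complex on G2 and mitosis genes. It had 18188, 17737 and 17940 counts with EtOH and 23033, 23282 and 23770 with OHT, well apart, at 0.38 (SE 0.03, adjusted p = 1.97e-41). It was also called higher at Day 2, at 0.15 (SE 0.04, adjusted p = 0.000802). *Foxm1*, encoding another activator of these genes, was called higher at Day 2, at 0.23 (SE 0.06, adjusted p = 0.00291), and was at -0.011 (SE 0.06, adjusted p = 0.927) at Day 4. *E2f4*, whose protein acts in the repressive DREAM complex, was the most negative of the list at Day 4, at -0.31 (SE 0.05, adjusted p = 1.28e-07). *Wee1*, encoding the kinase that restrains CDK1, was not called on either day, at 0.12 (SE 0.06, adjusted p = 0.119) and -0.038 (SE 0.05, adjusted p = 0.659).

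Of 29 tested genes for G1 and S phase, 4 (13.8%) were called higher and 12 (41.4%) lower at Day 4, beside 23.5% and 21.7% of all genes, with a median of -0.11. The D-type cyclin gene *Ccnd2* had 1364, 1393 and 1376 counts with EtOH and 342, 294 and 311 with OHT, which was the largest difference of the 6 lists at Day 4, at -2.13 (SE 0.08, adjusted p = 2.96e-153), and it was at -0.77 (SE 0.09, adjusted p = 6.03e-14) at Day 2. *Ccnd1*, encoding cyclin D1, was called lower at Day 4 alone, at -0.17 (SE 0.04, adjusted p = 0.000326). *Cdkn2a*, encoding cell cycle inhibitors of the INK4 and ARF kinds, was the most positive at low counts, with 82, 72 and 106 with EtOH and 142, 121 and 137 with OHT (log2 fold change 0.62, SE 0.20, adjusted p = 0.00851). *Cdkn1a*, encoding the CDK inhibitor p21, had 231, 204 and 197 counts with EtOH and 192, 199 and 191 with OHT and was not called, at -0.12 (SE 0.14, adjusted p = 0.568).

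Reads of the members were rarely shared with other genes. RSEM's posterior SD, which rises as reads are split between genes, was 0 for 27 of the 35 and at most 0.0459% of the count. Exons of 10 members overlap exons of a gene on the opposite strand, among them *Plk1* (Gm44985), *Cdc20* (*Elovl1*), *Ube2c* (*Tnnc2*), *Kif20a* (*Cdc23*) and *Prc1* (*Rccd1*). *Top2a* overlaps a gene on its own strand (Gm23451), which strand cannot separate. The libraries were stranded, but whether the counting used the strand is not given in the sources used here.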

How the data were processed

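Total RNA depleted of rRNA by a stranded kit was sequenced in 12 libraries. For each library, the authors ran STAR (2.6.0c) on GRCm38.p6, then RSEM on GENCODE vM18 genes. The deposited expected count is RSEM's estimate of read pairs per gene. The deposited TPM values, scaled to each library by the authors, were used untested for levels of the members and sums of cell type markers. A further pair of tables deposited by the authors holds DESeq2 (1.22.2) log2 fold changes and p-values, of which only gene IDs and symbols were read.

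Expected counts were rounded and tested across all genes with DESeq2 (1.42.0, R 4.3.3; Wald test, median-of-ratios size factors, default independent filtering), the tool of the study, per day with 6 libraries, within each label with 6, and as an interaction with 12. A gene was called at an adjusted p (Benjamini-Hochberg, over all genes) below 0.05 if its normalised count averaged over 100. Printed counts use size factors over all 12 libraries, and intervals are estimates ± 1.96 SE. Reads carry no molecular identifiers, so PCR copies cannot be told from separate molecules and error was taken from the spread over libraries. Scripts were tested on simulated data, in which the changed genes had larger log2 fold changes than any member here. Recovery of changes as small as those of the members was not tested.

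The members, lists and tests were chosen with earlier results of these data known. Lists came from general knowledge. Named in full were *Cdk1*, *Ccnb1*, *Plk1*, *Aurkb*, *Mad2l1*, *Bub1b*, *Cdc20*, *Ube2c*, members on the PRDM10 list, and the called members with the 4 highest and 4 lowest log2 fold changes at Day 4, the 3 highest and 3 lowest at Day 2, and the 3 largest interactions. Of each related list the highest and lowest called at Day 4 were named, with *Foxm1*, *Mybl2*, *Wee1*, *Cdkn1a* and *Ccnd1*. Other members are given by call. Positions are from GENCODE vM21 on GRCm38 and promoters from RefSeq (GRCm38.p6). Alternatives were edgeR (4.0.16), TMM factors, total counts, offsets from effective lengths, a loess fit on gene length per library subtracted (span 0.3, log2 of count plus 0.5), replicate blocks with and without that fit, 1 fit of 12 libraries, no minimum mean, adjustment over genes above it, removal of genes under 10 counts, and each library left out.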

Additional observations from a re-analysis of the deposited data

Results flagged for a closer look

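The treatment effect differed between the days, by the interaction term over 12 libraries with DESeq2, for 10 of the 35 genes. The Day 4 log2 fold change minus that at Day 2 was 0.441 for *Bub1* and 0.2 for *Ndc80*, and the latter was not called in 8 of the 12 fits that left out a library. It was -0.275 for *Cenpf*, -0.273 for *Plk1*, -0.261 for *Kif20a*, -0.206 for *Ube2c*, -0.169 for *Ccnb1*, -0.16 for *Incenp*, -0.147 for *Cdk1* and -0.146 for *Cdc20*. Of these, *Cdk1* was not called in 6 of the 12 fits that left out a library, nor with effective lengths as offsets. In *Bub1* the Day 4 EtOH libraries were the group that stood apart, whereas in *Plk1*, *Kif20a*, *Ccnb1*, *Ube2c*, *Incenp*, *Cdk1* and *Cdc20* the Day 4 OHT libraries were lowest. *Cenpf* had a positive Day 2 value that turned negative with the gene length trend removed.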

How the results depend on the processing

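The count of members called lower at Day 4 (17) stayed between 13 and 17 under the 11 alternatives other than leaving out a library, and its median (-0.061) between -0.072 and -0.054. Of all genes, 1856 to 3070 were called lower under the same alternatives. With total counts as scaling, the member median was 0.0043 at Day 2, -0.14 for OHT between the days and -0.098 for the interaction, and calls were 2 higher and 0 lower at Day 2, 3 higher for OHT between the days, and 1 higher and 14 lower for the interaction. The all-gene median was then 0.0093 at Day 2 and -0.0098 for the interaction, against -0.028 and 0.035 in the main fit. All-gene calls were 1391 higher and 639 lower at Day 2, and 1664 higher and 2098 lower for the interaction. For OHT between the days, all-gene values with total counts are not given. There the main fit called 30.8% of all genes higher, with a median of 0.036. With effective lengths as offsets, 2 were called higher and 1 lower at Day 2, and the interaction median was -0.030. The same setting called 953 of all genes higher and 1020 lower at Day 2, with an all-gene interaction median of 0.034. At Day 2, edgeR and TMM factors each called 1 lower, removal of the length trend called 0 lower, and 1 fit of all libraries called 2 higher. In the same order, they called 1334, 1005 and 991 of all genes lower and 1316 higher. For the interaction, edgeR and adjustment over genes above the minimum mean each called 4 higher, beside 2736 and 2351 of all genes. *Cenpf* at Day 2 was -0.047 with the length trend removed, also with the replicate block (-0.047).

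No label says that the replicate numbers pair libraries between groups. Deviations of same-numbered libraries correlated at -0.425 to 0.289 across 11616 genes. Each check took 1 replicate number in 1 comparison of groups. In 2 of 12 checks, the first group's library correlated best with its own number in the other group. With the replicate block, calls were 1 higher and 0 lower at Day 2, 2 and 14 at Day 4, 4 and 11 for EtOH between the days, 5 and 17 for OHT between the days, and 2 and 8 for the interaction. Of all genes, 648 were then called higher and 636 lower at Day 2, and 2013 and 1856 at Day 4. For the interaction the all-gene calls were 1918 and 1411. All-gene calls with the block are not given for the comparisons between the days. There the main fit called 20.6% of all genes higher and 20.5% lower with EtOH, and 30.8% and 23.0% with OHT. The block with the length trend removed called 0 higher and 0 lower at Day 2 and 2 higher at Day 4, beside 535, 580 and 2006 of all genes. The cause of these moves was not tested.

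Leaving out 1 library gave 0 to 1 called higher and 0 to 2 called lower at Day 2, 1 to 5 and 13 to 16 at Day 4, 2 to 4 and 7 to 13 for EtOH between the days, 4 to 6 and 16 to 18 for OHT between the days, and 1 to 3 and 7 to 9 for the interaction. All-gene calls in these fits were 617 to 1036 higher and 587 to 1101 lower at Day 2. They were 2097 to 2636 and 1937 to 2191 at Day 4, and 1699 to 2145 and 1289 to 1475 for the interaction. For EtOH between the days, 7 were called lower without Day 2 EtOH replicate 1 and 2 higher without Day 2 EtOH replicate 2. All-gene calls without a library are not given for the comparisons between the days. In the main fit, 20.6% of all genes were called higher and 20.5% lower with EtOH. With OHT these shares were 30.8% and 23.0%. Standard errors of the members ran from 0.026 to 0.081 on the log2 scale at Day 4, so that *Prc1* at 0.089 was called and *Cdc25c* at 0.14 was not.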
